A study of Homo sapiens with 3 samples.

Results

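The genes described here are the well expressed long noncoding RNAs (lncRNAs) of Caki-1 cells that remain once the genes named as small nucleolar RNA (snoRNA) hosts and the large nuclear RNAs are set aside. They were chosen by their type and their measured level, as the rows typed lncRNA in the authors' table whose RPKM averaged 5 or more over all 3 libraries, leaving out GAS5, ZFAS1, every row whose symbol in the table begins with SNHG, MALAT1, NEAT1 and TUG1. As only symbols of the table were used, LRRC75A-AS1 and LINC00888, which RefSeq now lists as SNHG29 and SNHG33, are members. RPKM is the number of reads scaled to transcript length and library size, so levels of different genes can be compared. The rule gave 77 genes of the 44591 in the table. The table holds 4452 lncRNA rows, of which 94 reached this level, and 14 GAS5, ZFAS1 and SNHG rows and the 3 nuclear RNAs were set aside from these. Because the mean over all libraries chose the members, their levels are a description.

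Caki-1 is an established human clear cell renal cell carcinoma line. The cells received a non-targeting siRNA (si-Control) or 1 of 2 siRNAs against RBCK1. The labels call these si-HOIL-1#1 and si-HOIL-1#2, and they are named si-RBCK1 #1 and si-RBCK1 #2 below. Total RNA was extracted 48 h after transfection, and sequencing followed. The paper does not state which RNA was selected for the libraries. RBCK1, also called HOIL-1, is a subunit of the ubiquitin ligase complex that builds linear ubiquitin chains, and the study asked what its loss does to these cells. Each condition had 1 library, so no spread between replicates exists, no test was possible and no p-value is given. All 3 libraries came from 1 cell line, and both siRNA libraries were compared with the same si-Control library.

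lncRNAs are transcripts, longer than microRNAs and other small RNAs, for which no protein product is recorded. Some act as molecules, by binding proteins or microRNAs in the cytoplasm. Others are carriers of small RNAs, which are cut from their introns or exons, or are made from the promoter of a neighbouring protein-coding gene or from its opposite strand. The annotation of such genes changes often, and small proteins were found in several transcripts first listed as noncoding.

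The targeted gene was read first. RBCK1 was at 33.3 RPKM in si-Control, 9.97 in si-RBCK1 #1 and 12.3 in si-RBCK1 #2, that is 29.9% and 36.8% of the control level. Both siRNA libraries were thus below si-Control, as their labels say. The libraries held between 36344428 and 40442939 reads. Each member had between 100 and 16211 reads in each library, as the smallest whole numbers that fit its RPKM values. Of 11 genes chosen as renal carcinoma markers, 3 (EPCAM, PAX2 and CA9) were below 1 RPKM in every library, while PAX8 was at 124, 82.5 and 107 RPKM in si-Control, si-RBCK1 #1 and si-RBCK1 #2. The 5 leukocyte, 4 endothelial and 2 red cell markers were all below 1 RPKM, with a highest value of 0.315. The summed level of the renal list was 1139 RPKM in si-Control and 2058 and 2060 in the siRNA libraries, most of it VIM, and its part in the results was not tested.

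The 77 lncRNAs were on the whole lower in both siRNA libraries than in si-Control. Ratios are given as log2 of (RPKM + 1) in a siRNA library over the same in si-Control, and this scale understates the change of a gene with a low level. The median log2 ratio of the members was -0.27 with si-RBCK1 #1 and -0.24 with si-RBCK1 #2, where the median of all 8078 genes whose RPKM averaged 5 or more was 0.06 with each siRNA. With si-RBCK1 #1, 53 members (68.8%) were lower than in si-Control by any amount, beside 44.7% of all genes. With si-RBCK1 #2 they were 52 (67.5%), beside 44.3% of all genes. Protein-coding genes of a like level, between 5 and 20 RPKM, had medians of 0.02 and 0.05, and 48.1% and 45.0% of these 4497 genes were lower. The middle part of the members, from the lower to the upper quartile, ran from -0.68 to 0.06 with si-RBCK1 #1 and from -0.63 to 0.19 with si-RBCK1 #2. The 65 members between 5 and 20 RPKM had medians of -0.27 and -0.18, and the 12 members of at least 20 RPKM had -0.29 and -0.37. The shift was smaller with si-RBCK1 #2 in the 26 members that overlap a protein-coding gene. Their medians were -0.26 and -0.08, and 65.4% and 53.8% of them were lower. The 51 members without such an overlap had medians of -0.29 and -0.38. In the sum over the members, 1201 RPKM in si-Control compared with 969 in si-RBCK1 #1 and 1018 in si-RBCK1 #2. Fewer transcripts per cell and a larger amount of other RNA cannot be told apart in such values.

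**Figure D1:**
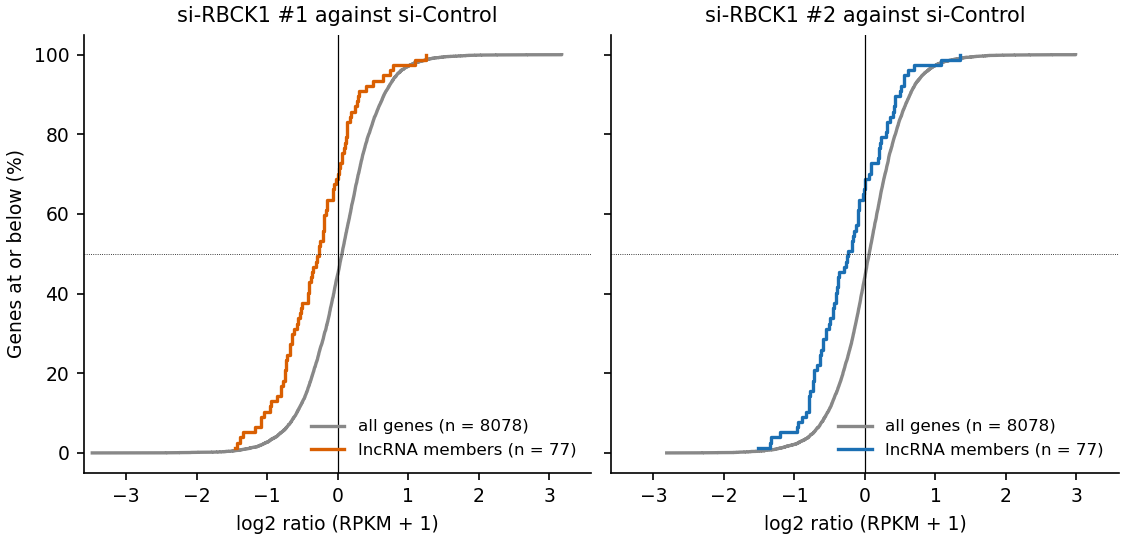
Cumulative share of genes (y axis, %) at or below each log2 ratio of RPKM + 1 (x axis), for the 77 lncRNA members (coloured) and all 8078 genes averaging 5 RPKM or more (grey), with si-RBCK1 #1 on the left and si-RBCK1 #2 on the right. The coloured lines cross 50% at -0.27 and -0.24 and the grey lines at 0.06.

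The excluded groups are given for comparison and were not tested against the members. The 14 snoRNA host genes had medians of -0.38 and -0.39, and the 3 nuclear RNAs had -0.80 and -0.60. The table holds 43 further genes of at least 5 RPKM under the types lincRNA, antisense and related noncoding types, which the rule did not take, and their medians were -0.33 and -0.29.

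Changes of at least 2-fold on this scale were found in few members. With si-RBCK1 #1, 10 of 77 changed by at least 2-fold (12.99%), beside 5.63% of all genes, 2 of them higher (background 2.93%) and 8 lower (background 2.7%). The 2 higher ones were BCYRN1 and NRAV, and the 8 lower ones were LOC102724927, EPB41L4A-AS1, THAP9-AS1, LOC100506844, LOC100129034, SERTAD4-AS1, HOST2 and LINC00998. With si-RBCK1 #2, 6 of 77 changed by at least 2-fold (7.79%), beside 4.84% of all genes, 2 higher (BCYRN1 and AFAP1-AS1, background 2.69%) and 4 lower (LOC102724927, EPB41L4A-AS1, ZMIZ1-AS1 and HEIH, background 2.15%). The 3 genes on both lists with the same sign were BCYRN1, LOC102724927 and EPB41L4A-AS1, where 3.17% of all genes met this rule (1.78% higher and 1.39% lower), and the shared si-Control library enters both ratios.

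**Figure D2:**
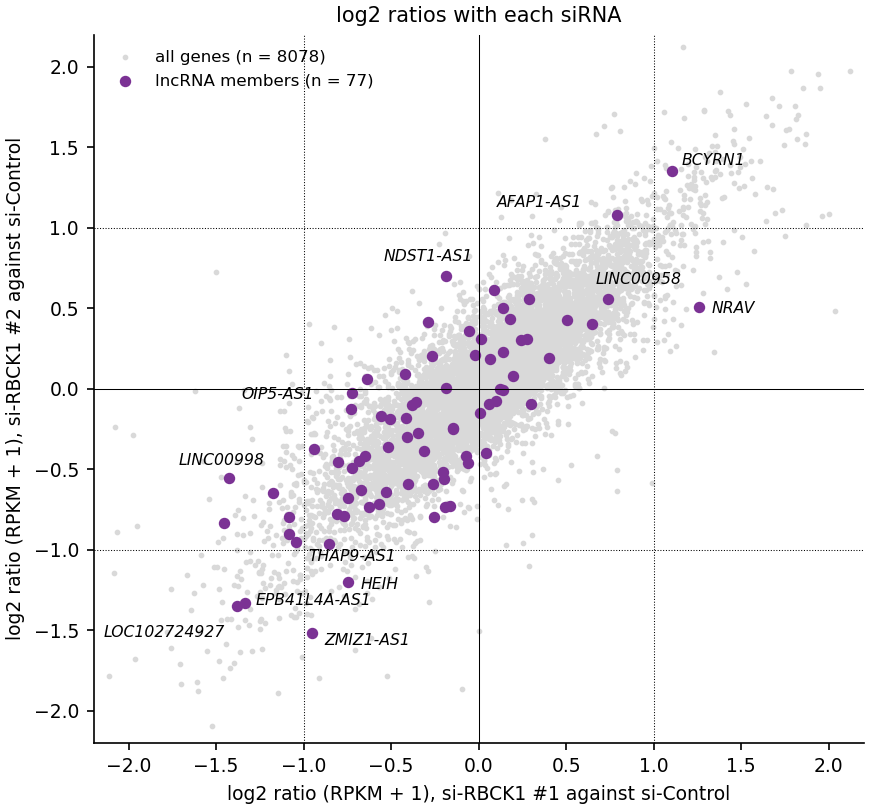
log2 ratio of RPKM + 1 with si-RBCK1 #1 (x axis) and si-RBCK1 #2 (y axis), both against the same si-Control library, for the 77 members (purple) and all 8078 genes (grey, 21 of which lie outside the axes); dotted lines mark 2-fold. BCYRN1 is the only member past 2-fold higher on both axes, and LOC102724927 and EPB41L4A-AS1 are the only members past 2-fold lower on both.

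The 10 highest members are described first, since they held 37.7% of the members' summed RPKM in si-Control, 43.5% in si-RBCK1 #1 and 42.8% in si-RBCK1 #2. LRRC75A-AS1, which carries several snoRNAs in its introns, was the highest, with 88.7 RPKM in si-Control, 73.9 in si-RBCK1 #1 and 58.4 in si-RBCK1 #2. Its log2 ratios were -0.26 and -0.59. LINC00888, the other member with an SNHG name in RefSeq, was at 12.8, 6.88 and 7.03 RPKM, with -0.81 and -0.78. MIR3142HG, the host transcript of miR-146a, was at 49.9, 40.1 and 38.0 RPKM. CCAT1, an RNA from the gene-poor stretch beside MYC, was at 41.1, 36.6 and 24.4 RPKM. All 4 genes were highest in si-Control, and for LRRC75A-AS1 and CCAT1 the si-RBCK1 #2 library was clearly the lowest.

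A pair of the highest members have been found to code for small proteins. LINC00998 (chr7:112756773-112758637, hg19, minus strand), now SMIM30, encodes a small integral membrane protein and was at 66.0 RPKM in si-Control, 23.9 in si-RBCK1 #1 and 44.7 in si-RBCK1 #2. LINC00493, now SMIM26, encodes a small protein of mitochondria and was at 43.1, 24.3 and 31.1 RPKM. Both were highest in si-Control and lowest with si-RBCK1 #1, with log2 ratios of -1.43 and -0.55 for LINC00998 and of -0.80 and -0.46 for LINC00493. By gene ID, 73 of the 77 members matched a RefSeq gene, 25 of these carry another symbol today, and 5 are protein-coding there. The other 3 of the 5 are LINC00116 (MTLN, a micropeptide of the inner mitochondrial membrane), MMP24-AS1 and NCBP2-AS2. LINC00116 was at 6.59, 5.86 and 5.42 RPKM, MMP24-AS1 at 15.2, 11.6 and 14.3, and NCBP2-AS2 at 7.24, 7.75 and 11.6. Of the 5, NCBP2-AS2 was the only one above its si-Control level with either siRNA, and the medians were -0.36 and -0.24.

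DANCR, an RNA first described as a brake on differentiation and also a host of SNORA26, was at 23.5 RPKM in si-Control, 28.0 in si-RBCK1 #1 and 29.2 in si-RBCK1 #2. It was higher with both siRNAs, with log2 ratios of 0.24 and 0.30. LINC00958, an intergenic lncRNA, was at 41.5, 70.0 and 61.7 RPKM, with log2 ratios of 0.74 and 0.56, so that it was the second most abundant member over the 3 libraries. Among the 10 highest members, LINC00958, AFAP1-AS1, BCYRN1 and DANCR were higher than si-Control with each siRNA, and the other 6 were lower with each.

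**Figure D3:**
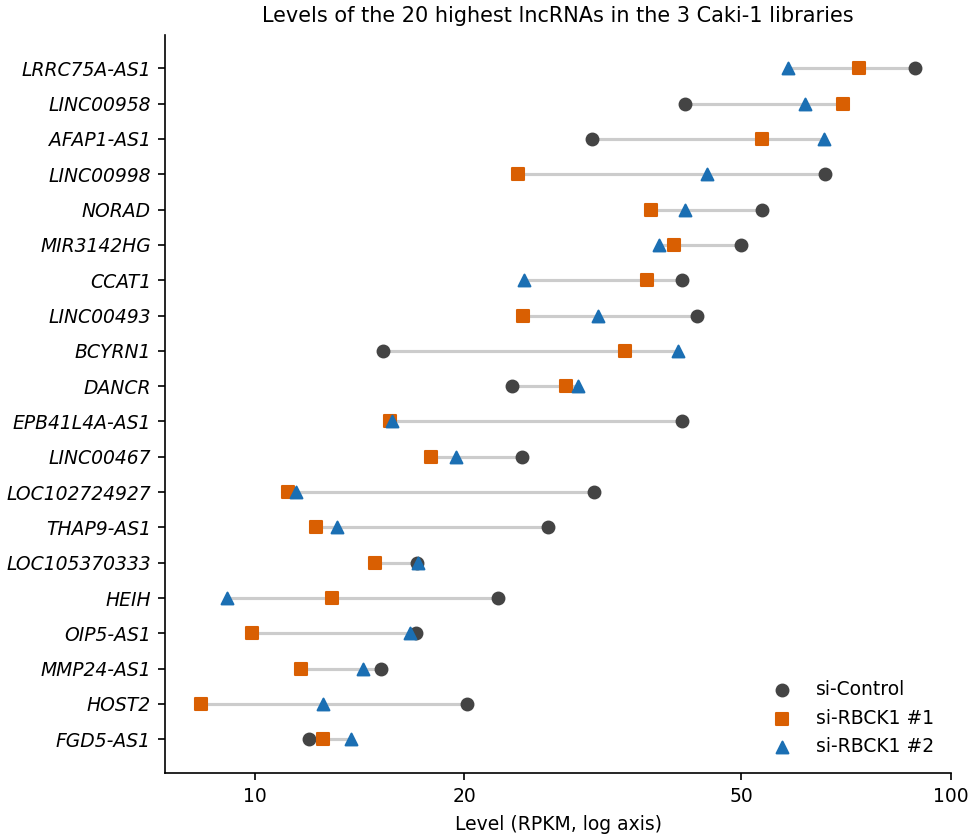
Level in RPKM (log axis) of the 20 members with the highest mean, in si-Control (grey circles), si-RBCK1 #1 (orange squares) and si-RBCK1 #2 (blue triangles), each point 1 library. For BCYRN1, AFAP1-AS1, LINC00958, DANCR and FGD5-AS1 the si-Control point is the lowest. It lies to the right of both others for LINC00998, EPB41L4A-AS1, LOC102724927, THAP9-AS1, HEIH and HOST2, among others.

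NORAD, an abundant cytoplasmic RNA that binds proteins, was at 53.6 RPKM in si-Control, 37.1 in si-RBCK1 #1 and 41.4 in si-RBCK1 #2. It was highest in si-Control, with log2 ratios of -0.52 and -0.36, and with this depth the 95% counting intervals were narrow, at -0.57 to -0.49 and -0.41 to -0.33 on the log2 scale of reads scaled to the library total. Such an interval is the exact Clopper-Pearson interval of the reads in 2 libraries, covers counting error only and says nothing of the spread between cultures.

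The gene with the largest rise by the smaller of its 2 ratios was BCYRN1. It makes BC200, a short RNA transcribed by RNA polymerase III that descends from an Alu repeat and is best known from neurons, where it binds proteins of translation. BCYRN1 lies on chromosome 2 at chr2:47562454-47562653 (hg19, plus strand) and its row has a length of 200 nt. It was at 15.3 RPKM in si-Control, 34.0 in si-RBCK1 #1 and 40.6 in si-RBCK1 #2, from 113, 275 and 295 reads. Both siRNA libraries were above si-Control by more than 2-fold, with log2 ratios of 1.10 and 1.35. The counting intervals of the ratios of scaled reads were 0.83 to 1.48 and 1.09 to 1.73. Near-identical Alu copies occur throughout the genome, and how reads with several matches were counted is not given in the sources used here, so the BCYRN1 values are uncertain beyond their counting error.

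AFAP1-AS1 (chr4:7755817-7780655, hg19, plus strand), an lncRNA that runs against the AFAP1 gene, was at 30.5 RPKM in si-Control, 53.6 in si-RBCK1 #1 and 65.6 in si-RBCK1 #2. It was lowest in si-Control and had log2 ratios of 0.79 and 1.08. AFAP1, the actin filament associated protein gene on the opposite strand, went the other way, with 17.8, 10.5 and 9.77 RPKM and log2 ratios of -0.71 and -0.80. The loci share 20216 bases. Whether strand was used in counting is not given in the sources used here, so reads of the 2 genes cannot be told apart where their exons overlap, and the same holds for every opposite-strand pair named here.

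NRAV, named as a negative regulator of the antiviral response, was at 5.52 RPKM in si-Control, 14.6 in si-RBCK1 #1 and 8.28 in si-RBCK1 #2. It was higher with both, but its log2 ratio of 1.26 with si-RBCK1 #1 compared with 0.51 with si-RBCK1 #2. The counting interval of si-RBCK1 #2 over si-RBCK1 #1, at -0.97 to -0.67, did not include 0. NRAV lies wholly opposite DYNLL1, a dynein light chain gene at 99.9, 91.5 and 121 RPKM. TP53TG1, named as a p53 target, was at 7.32, 10.8 and 10.2 RPKM (log2 ratios 0.51 and 0.43), and LINC00673 was at 6.70, 11.1 and 9.18 RPKM (0.65 and 0.40). These were the smallest of the 6 largest rises, and both were below 2-fold.

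The falls were more frequent. LOC102724927 (chr16:3997610-4000445, hg19, minus strand), listed in RefSeq as TRIDDENT, was at 30.7 RPKM in si-Control, 11.16 in si-RBCK1 #1 and 11.4 in si-RBCK1 #2, with log2 ratios of -1.38 and -1.35. EPB41L4A-AS1 (chr5:111496223-111498198, hg19, plus strand), the host transcript of SNORA13, was at 41.1, 15.7 and 15.7 RPKM, with -1.34 and -1.33. For both genes the siRNA libraries were almost equal and lay more than 2-fold below si-Control. The counting intervals of si-RBCK1 #2 over si-RBCK1 #1 were -0.13 to 0.20 for LOC102724927 and -0.14 to 0.16 for EPB41L4A-AS1, and both included 0. The row of SNORA13 itself held 8, 9 and 6 reads, too few to set beside its host. EPB41L4A, on the opposite strand of EPB41L4A-AS1, was at 1.35, 0.635 and 0.745 RPKM.

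ZMIZ1-AS1 begins 1587 bases from the start of ZMIZ1, a gene for a transcriptional coregulator, and is read in the other direction. It was at 11.5 RPKM in si-Control, 5.44 in si-RBCK1 #1 and 3.36 in si-RBCK1 #2, with log2 ratios of -0.95 and -1.52. ZMIZ1 itself was at 8.48, 5.66 and 4.74 RPKM, so that lncRNA and neighbour had the same order in the 3 libraries. PTPRD-AS1 and PTPRD, a receptor tyrosine phosphatase gene on the opposite strand, also shared their order. PTPRD-AS1 was at 9.91, 5.02 and 4.60 RPKM, and PTPRD at 10.1, 5.86 and 5.21. THAP9-AS1 was at 26.4, 12.2 and 13.1 RPKM, with -1.05 and -0.95. It overlaps SEC31A, a coat protein gene of vesicle traffic, by 7120 bases on the same strand, and SEC31A was at 56.0, 66.3 and 57.2 RPKM, so it was not below si-Control. LOC100506844, listed in RefSeq as GIHCG, was at 16.7, 7.32 and 8.46 RPKM, with -1.09 and -0.90.

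**Figure D4:**
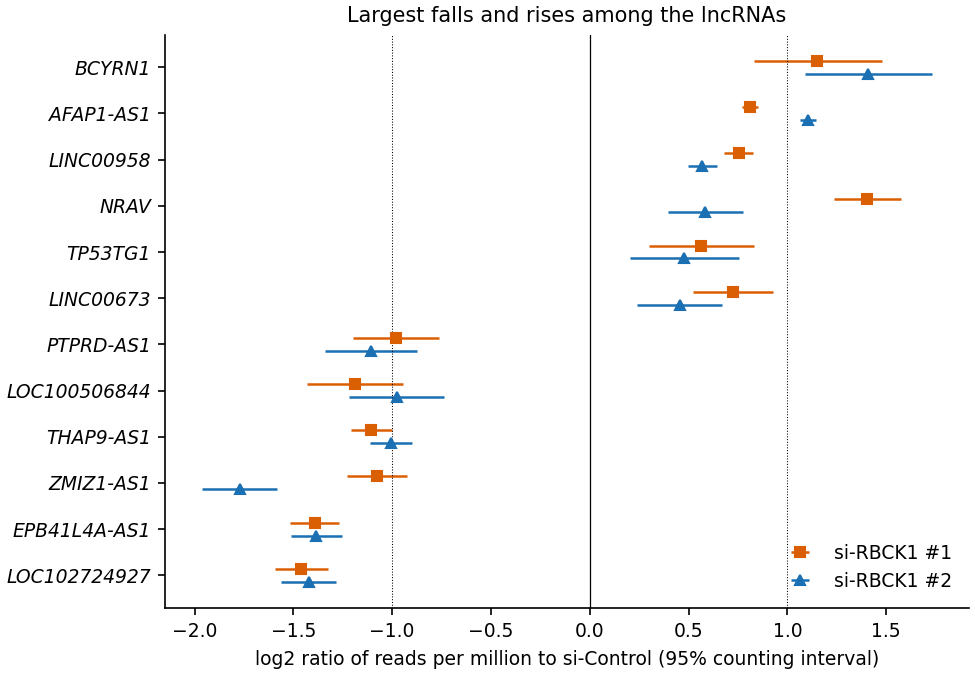
log2 ratio of reads, scaled to the library total, to si-Control (x axis) for the 6 largest rises and 6 largest falls among the 77 members, with si-RBCK1 #1 as orange squares and si-RBCK1 #2 as blue triangles; bars are exact 95% counting intervals from 1 library per condition and cover no spread between cultures. The intervals of the 2 siRNAs overlap for LOC102724927 and EPB41L4A-AS1 and do not overlap for NRAV and ZMIZ1-AS1.

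The 2 siRNAs did not give equal ratios for many members. The absolute difference between the 2 log2 ratios of a member had a median of 0.24, beside 0.15 over all 8078 genes, and 16 members differed by at least 0.5. The counting interval of si-RBCK1 #2 over si-RBCK1 #1 left out 0 for 53 of the 77 members. Neither of these counts was made over all genes, and the medians were not matched for level. Whether such differences are particular to the members was thus not tested. Which part of these differences comes from the siRNA and which from the culture cannot be told apart with 1 library each. OIP5-AS1, also known as Cyrano and known for a near-perfect site for miR-7, was at 17.1 RPKM in si-Control, 9.92 in si-RBCK1 #1 and 16.7 in si-RBCK1 #2. Only its si-RBCK1 #1 library stood apart, with log2 ratios of -0.73 and -0.03. NDST1-AS1 was at 7.05, 6.08 and 12.1 RPKM, BAIAP2-AS1 at 5.76, 4.53 and 8.02, and LOC100506498 at 7.45, 4.42 and 7.80. These 3 had the largest differences among members whose ratios had opposite signs, each lowest with si-RBCK1 #1 and highest with si-RBCK1 #2. Their log2 ratios were -0.19 and 0.70, -0.29 and 0.42, and -0.64 and 0.06.

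The miR-7 site is printed because it identifies the transcript; capitals mark the seed of the microRNA (bases 2 to 8) and its match in OIP5-AS1. The site lies at bases 2869 to 2894 of the 8829 in the longest GENCODE transcript of OIP5-AS1, and 14 of 14 bases of the 3′ part of miR-7 are matched as well. The smallest length that gives whole reads for the OIP5-AS1 row is 1894 nt, and multiples of it would do so too. Which transcript model was counted, and whether it holds the site, is thus not known. The microRNA sequence is from RefSeq.
OIP5-AS1: aacaacaaaatcaccaatGTCTTCCa
hsa-miR-7-5p: uGGAAGACuagugauuuuguuguu

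Some members carry small RNAs, and 8 of the 77 hold a small RNA gene of the table on the same strand. Of these 8, 6 were lower and 2 higher (DANCR and MIR22HG) with each siRNA, and their medians were -0.29 and -0.58. MIR22HG, the host of miR-22, was at 8.23 RPKM in si-Control, 9.57 in si-RBCK1 #1 and 8.76 in si-RBCK1 #2, with log2 ratios of 0.19 and 0.08. Its counting interval with si-RBCK1 #2, -0.05 to 0.23, included 0. MIR100HG, the host of miR-100, let-7a-2 and miR-125b-1, was at 11.17, 7.43 and 6.79 RPKM, with -0.53 and -0.64. Host levels thus differed in direction, and neither MIR22HG, MIR100HG nor MIR3142HG reached 2-fold. The rows of the hairpins within MIR22HG, MIR100HG and MIR3142HG held at most 2 reads in a library, so nothing can be read of the microRNAs themselves. The mature sequences from RefSeq are shown to name what these hosts carry, with the seed in capitals, and no pair of them shares a seed.
hsa-miR-22-3p: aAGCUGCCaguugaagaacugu
hsa-miR-146a-5p: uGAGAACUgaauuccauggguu
hsa-miR-100-5p: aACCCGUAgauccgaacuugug
hsa-let-7a-5p: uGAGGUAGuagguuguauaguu
hsa-miR-125b-5p: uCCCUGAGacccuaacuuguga

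By their names, 32 members are antisense RNAs, 14 are LINC genes, 15 have only a LOC number, 3 are host genes and 13 have other names. The antisense RNAs had medians of -0.32 and -0.10, the LINC genes -0.11 and -0.27, and the genes with a LOC number -0.38 and -0.17. In each of these 3 classes more members were lower than higher with each siRNA: 23 and 19 of the antisense RNAs, 8 and 12 of the LINC genes, and 11 and 10 of the LOC genes were lower with si-RBCK1 #1 and #2.

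Many of these genes are neighbours of a protein-coding gene, and 26 overlap at least 1. A head-to-head neighbour, read on the other strand with its start within 2000 bases, was found for 27 members, and in 21 of these pairs the neighbour had a mean of at least 5 RPKM. The lncRNA and its neighbour had log2 ratios of the same sign in 12 of the 21 pairs with si-RBCK1 #1 and in 15 with si-RBCK1 #2. Across the 21 pairs Pearson's r was 0.21 and 0.49 and Spearman's rho 0.18 and 0.42, given as a description, since all pairs share the same libraries. For the 13 opposite-strand pairs with a neighbour of at least 5 RPKM, the signs were the same in 5 and 7, and r was -0.17 and 0.09. Unlike the members as a whole, the lncRNAs of these 13 pairs had medians above si-Control, at 0.10 and 0.19. Their neighbours had medians of -0.40 and -0.21. In the 21 head-to-head pairs the lncRNAs had medians of -0.29 and -0.10.

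In several head-to-head pairs both genes were lower with each siRNA. CRIM1, which encodes a transmembrane protein that binds growth factors, was at 85.5 RPKM in si-Control, 45.7 in si-RBCK1 #1 and 54.7 in si-RBCK1 #2, and its partner LOC100288911 was at 8.21, 5.25 and 7.19. For LOC100288911 with si-RBCK1 #2 the counting interval, -0.48 to 0.10, included 0. AFF1, a scaffold gene of the super elongation complex, was at 25.5, 13.8 and 17.5 RPKM, and its partner LOC100506746 was at 7.02, 4.12 and 5.01. WAC was at 55.6, 27.0 and 38.2 RPKM, and WAC-AS1 at 8.04, 6.86 and 5.32. All 3 pairs were highest in si-Control, and CRIM1, AFF1 and their partners were lowest with si-RBCK1 #1.

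In other pairs the lncRNA was much lower with each siRNA while its neighbour stayed near its si-Control level. NUP50, a nuclear pore gene, was at 18.8, 17.2 and 18.7 RPKM, while NUP50-AS1, which begins 64 bases away, was at 13.1, 7.26 and 7.14. UBA6, a ubiquitin-activating enzyme gene, was at 23.4, 20.4 and 20.4 RPKM, and UBA6-AS1 at 15.1, 9.42 and 8.66. SERTAD4 was at 15.3, 15.8 and 13.1 RPKM, and SERTAD4-AS1 at 14.0, 6.06 and 7.64. In these pairs the lncRNA had a log2 ratio between -1.09 and -0.62 with each siRNA, and the neighbour between -0.21 and 0.04. PSMB7, a proteasome gene on the opposite strand of LOC100129034, was at 109, 127 and 101 RPKM, while LOC100129034 was at 19.4, 6.44 and 10.4. PAX8-AS1, opposite the kidney lineage gene PAX8, was at 8.01, 8.91 and 11.8 RPKM and did not follow the lower level of PAX8 in the siRNA libraries.

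**Figure D5:**
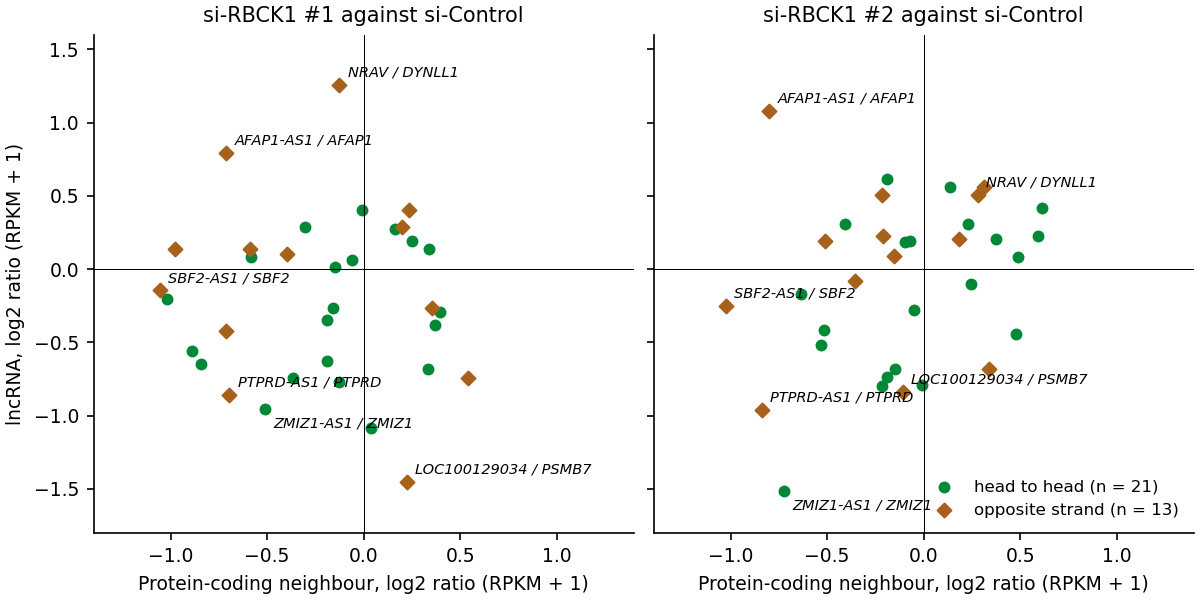
log2 ratio of RPKM + 1 of each lncRNA (y axis) against that of its protein-coding neighbour (x axis) with si-RBCK1 #1 (left) and si-RBCK1 #2 (right), for 21 head-to-head pairs (green circles) and 13 opposite-strand pairs (brown diamonds) whose neighbour had a mean of at least 5 RPKM. AFAP1-AS1 lies at the upper left in both panels, above 0 while AFAP1 is below 0, and PTPRD-AS1 and ZMIZ1-AS1 lie at the lower left with their neighbours.

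The promoters of the members, taken as 250 bases before to 50 bases after each start in RefSeq (GRCh38.p14), were found for 62 of the 77. Their median GC content was 65.8%, beside 58.3% for all 27305 promoters of the table. Motifs were searched on both strands, and none of the motifs contains another. The NRF1 motif, GCGCA followed by any base and GCGC, was in 9 member promoters (14.5%), beside 6.29% of all promoters, and the E-box CACGTG was in 9 (14.5%), beside 7.44%. The TATA box TATAAA was in 1 (LINC00998, 1.61%), beside 12.0%. The cAMP response element TGACGTCA, beside 1.98% of all promoters, the amino acid response motif TGATGNAAT, beside 1.02%, and a pair of adjoining p53 recognition motifs without spacer, beside 0.0183%, were in none. The absence of these letters from this window says nothing about the factors. CD27-AS1, MAFG-AS1 and NUP50-AS1 held both an NRF1 motif and an E-box. Of these, CD27-AS1 was at 6.86, 5.19 and 5.49 RPKM in si-Control, si-RBCK1 #1 and si-RBCK1 #2, and MAFG-AS1 at 6.13, 6.20 and 7.83. So NUP50-AS1 and CD27-AS1 were lower with each siRNA and MAFG-AS1 was not. The promoters of NUP50-AS1 (chr22:45163732-45164031, minus strand) and MAFG-AS1 (chr17:81927579-81927878, plus strand) are shown as examples of 2 genes with the same motifs and different ratios, with both motifs in capitals.
NUP50-AS1: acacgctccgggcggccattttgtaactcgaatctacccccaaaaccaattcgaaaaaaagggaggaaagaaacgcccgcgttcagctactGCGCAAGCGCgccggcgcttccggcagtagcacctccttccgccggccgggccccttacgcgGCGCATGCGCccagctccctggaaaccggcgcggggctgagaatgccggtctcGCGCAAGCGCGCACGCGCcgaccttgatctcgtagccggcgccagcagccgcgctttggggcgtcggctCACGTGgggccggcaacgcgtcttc
MAFG-AS1: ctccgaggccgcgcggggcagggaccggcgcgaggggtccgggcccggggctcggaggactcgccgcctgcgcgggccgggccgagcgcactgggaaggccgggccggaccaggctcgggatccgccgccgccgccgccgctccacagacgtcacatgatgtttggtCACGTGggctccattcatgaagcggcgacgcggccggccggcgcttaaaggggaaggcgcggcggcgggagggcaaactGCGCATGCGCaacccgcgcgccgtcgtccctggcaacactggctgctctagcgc

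Lists of gene symbols known from other work, some holding older and newer symbols of the same gene, gave few members each. Of 20 symbols listed for lncRNAs induced by p53, only TP53TG1 and PVT1 were members, TP53TG1 being higher and PVT1 lower with each siRNA. PVT1, an lncRNA beside MYC, was at 14.3 RPKM in si-Control, 12.3 in si-RBCK1 #1 and 9.36 in si-RBCK1 #2. Of 16 symbols listed for lncRNAs raised in hypoxia, LUCAT1 and PVT1 were members, and both were lower with each siRNA. LUCAT1, a stress-induced lncRNA, was at 15.2, 12.6 and 8.32 RPKM. Of 26 symbols listed for lncRNAs studied in renal cell carcinoma, 4 were members (OIP5-AS1, LUCAT1, PVT1 and LINC00963). None of them was higher with either siRNA, and their medians were -0.49 and -0.53. LINC00963 was at 14.3, 8.27 and 9.87 RPKM. None of these 4 changed by 2-fold.

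Of 11 symbols listed for cytoplasmic lncRNAs that act with the translation or RNA-binding machinery, 5 were members, and they did not move one way. BCYRN1 and DANCR were higher with each siRNA, and NORAD and EPB41L4A-AS1 were lower with each. OIP5-AS1 was lower with si-RBCK1 #1, while with si-RBCK1 #2 its counting interval, -0.15 to 0.09, included 0. BCYRN1 was also the only member from a list of 12 short RNAs, most of them made by RNA polymerase III or belonging to ribonucleases. Of 23 symbols listed as microRNA hosts 3 were members (PVT1, MIR22HG and MIR100HG). A list of 13 snoRNA hosts without an SNHG name, protein-coding genes among them, gave 2 members (DANCR and EPB41L4A-AS1). These lists are not complete. MIR3142HG holds microRNA genes, THAP9-AS1 and LRRC75A-AS1 hold snoRNA genes, and none of them was listed. Of 15 symbols listed for lncRNAs of imprinted loci none was a member.

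At the limit that chose the members, LOC100506746 and MKLN1-AS were just inside, with means of 5.38 and 5.11 RPKM. LINC01436 and LOC100507002 were just outside, with means of 4.92 and 4.91 RPKM. MKLN1-AS was at 5.07, 5.51 and 4.75 RPKM in si-Control, si-RBCK1 #1 and si-RBCK1 #2, LINC01436 at 5.49, 4.87 and 4.41, and LOC100507002 at 3.98, 5.22 and 5.53, so genes on each side of the limit differed little in level.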

How the data were processed

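RNA of 3 Caki-1 libraries was analysed, 1 per condition. According to the submitters' processing notes, FastQC, Trimmomatic, TopHat2 and HTSeq were used with hg19; the annotation, the strand setting and the handling of reads with several matches are not given in the sources used here. The authors deposited 1 RPKM value per gene and library. The 5 columns that hold their own comparison (values for control and treated cells, the fold change between them on the log2 scale, and its p-value and q-value) were not used. 1 row with an entry that is not a number was left out.

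Each si-RBCK1 library was set against si-Control on log2(RPKM + 1), as deposited and with no further scaling, and the siRNAs were not averaged. At least 2-fold on this scale was the limit, and the same counts over all genes averaging 5 RPKM or more served as background. Library totals were found from the value of 1 read in genes of at most 200 nt, and whole reads (tolerance 0.002) were then found for all 77 members by searching lengths of up to 50000 nt. The smallest length that gave whole reads in all 3 libraries was taken. A multiple of it would fit as well, with more reads, so lengths and reads are the smallest that fit. From these reads, 95% Clopper-Pearson intervals were computed, which are exact for counting error and cover nothing else. The scripts were tested on simulated data. Analyses were run with scipy 1.17.1, pandas 2.3.3 and numpy 2.4.6 under Python 3.11.15, and plots were drawn with matplotlib 3.10.9.

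The members and lists were chosen with earlier results of these data known. The genes to be named were RBCK1, the 10 highest members, those changed by at least 2-fold in both siRNA libraries, the 6 largest rises and 6 largest falls by the smaller ratio, 3 members with opposite signs, the genes beside the limit, list members and protein-coding neighbours. Other members were named after their values were seen. Promoters and microRNAs came from RefSeq (GRCh38.p14), transcripts from GENCODE release 29, and coordinates of loci from the deposited table (hg19). Alternatives were other pseudocounts, scalings, limits on the mean and on the fold, and leaving out overlapping or small RNA genes. Some sequences and motifs are not reported here.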

Additional observations from a re-analysis of the deposited data

How the results depend on the processing

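No paired analysis was possible because si-Control, si-RBCK1 #1 and si-RBCK1 #2 are 1 library each. For the same reason no library could be left out, and only counting error limits the values that could be given; a lack of replicates limits all of them. The number of members changed by at least 2-fold was 10 with si-RBCK1 #1, 6 with si-RBCK1 #2 and 3 with both. With a pseudocount of 5 RPKM the first 2 counts were 4 and 3 (beside 2.62% and 2.36% of all genes), as a larger pseudocount shrinks ratios by construction. With a limit of 1.5-fold the 3 counts were 29, 26 and 17 (beside 22.9%, 20.7% and 14.4% of all genes), and at 4-fold 0, 0 and 0 (0.272%, 0.186% and 0.0867%). With a mean of at least 1 RPKM (401 genes) they were 28, 21 and 10 (6.18%, 4.76% and 2.87% of all genes at that level), and with no limit on the mean (4426 genes) 40, 27 and 12 (2.09%, 1.59% and 0.897%). Without members that overlap a protein-coding gene, 51 genes remained, so smaller counts are likely from the size of the set alone. The 3 counts were 5, 4 and 2, beside 5.63%, 4.84% and 3.17% of all genes, overlapping ones included. The median log2 ratio was 0 with each siRNA when no limit was set on the mean, and -0.45 with si-RBCK1 #2 for members of at least 10 RPKM (31 genes); the cause of the latter was not tested. Without LRRC75A-AS1 and LINC00888, an alternative chosen after seeing the data, the counts were again 10, 6 and 3 and the medians -0.27 and -0.19. Under the other alternatives the medians kept their sign. Scaling to equal medians or equal totals gave 53 to 56 members lower than si-Control, beside 53 and 52 as deposited. Of 248 single log2 ratios recomputed under pseudocounts and scalings, 33 moved by more than the half-width of their counting interval and none changed sign.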

Other observations

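Below the limit of 5 RPKM the table holds 324 lncRNA rows with a mean of 1 to 5 RPKM, of which 1 was higher and 6 were lower by at least 2-fold with each siRNA, beside 0.855% and 1.46% of all 4325 genes at that level, and the median log2 ratios were -0.17 and -0.12. C5orf56, an lncRNA beside IRF1 that RefSeq lists as CARINH, was at 10.3 RPKM in si-Control, 1.44 in si-RBCK1 #1 and 2.46 in si-RBCK1 #2. MSC-AS1 was at 7.07, 2.15 and 2.58 RPKM, and CASC15 at 2.36, 0.507 and 0.506. The 1 higher gene was THRIL, at 1.39, 5.38 and 6.57 RPKM from 102, 431 and 473 reads. All 4 genes were picked after their values were seen.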
